A study of Rattus norvegicus with 54 samples.

Results

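The left testes of wildtype LE/wt rat fetuses were compared between gestational day 19 (GD19) and gestational day 17 (GD17). The arrays were taken by their strain, tissue and day labels, which gave 10 of the 54 arrays of the series: 5 of GD19 LE/wt testis and 5 of GD17 LE/wt testis. Each array held RNA from 1 testis of 1 male fetus from a timed mating, and no litter was given, so the spread between arrays includes fetus, dissection and array. The other testis arrays were 5 of GD19 and 5 of GD17 left testis from LE/orl, a strain with inherited cryptorchidism (undescended testis). They served to set the wildtype change against another strain. They also helped decide which features were tested and entered the spread behind the LE/wt errors and p-values. No fetus was treated, all testis RNA was labelled by a 1-cycle biotin protocol, and the dissection text of the testis labels names the gubernaculum, so how the testes were dissected is not given.

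In these last days before birth the fetal testis is an endocrine organ. Its Leydig cells, between the cords, take up cholesterol and turn it into androgens and also secrete a hormone that acts on the gubernaculum, and both steer descent. Sertoli cells line the cords, surround the germ cells and secrete anti-Mullerian hormone, while peritubular muscle-like cells, fibroblasts, vessels and macrophages fill the rest.

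Levels are the deposited GCRMA values on a log2 scale, a measure of array signal in which 1 unit is a doubling, and changes are GD19 minus GD17. They compare a gene with itself between days, since a level on an array cannot be set against that of another gene. Of 7878 features tested, limma called 3287 at a Benjamini-Hochberg adjusted p under 0.05, a background of 41.7%, with 1486 higher at GD19 (18.9%) and 1801 lower (22.9%). Most changes were small: 198 of the called features rose and 94 fell by at least 1 on the log2 scale, and the median change over all features was -0.03. A gene symbol was available for 2564 of the features, and 1108 of these were called (43.2%), with 495 higher (19.3%) and 613 lower (23.9%). Of the named features, 2312 carried a name only through lists that the study selected in gubernaculum and the rest through a list selected for strain differences in testis, so the named genes are no sample of all genes.

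The RNA index of the 10 arrays differed between the days, while correlations within groups were alike. Correlations between arrays of a group were 0.978 to 0.992 in GD19 testes and 0.983 to 0.992 in GD17 testes, over the 7878 features tested. The 5′ minus 3′ control signal, an index of RNA and label length, averaged -1.68 at GD19 and -1.85 at GD17 for beta-actin (exact permutation p = 0.0476, two-sided, n = 5 each), and -0.63 at GD19 and -0.79 at GD17 for GAPDH (exact permutation p = 0.0238). The part of this index in the results below was not tested. In whole organs, fewer cells of a type and less RNA per cell cannot be told apart.

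**Figure D1:**
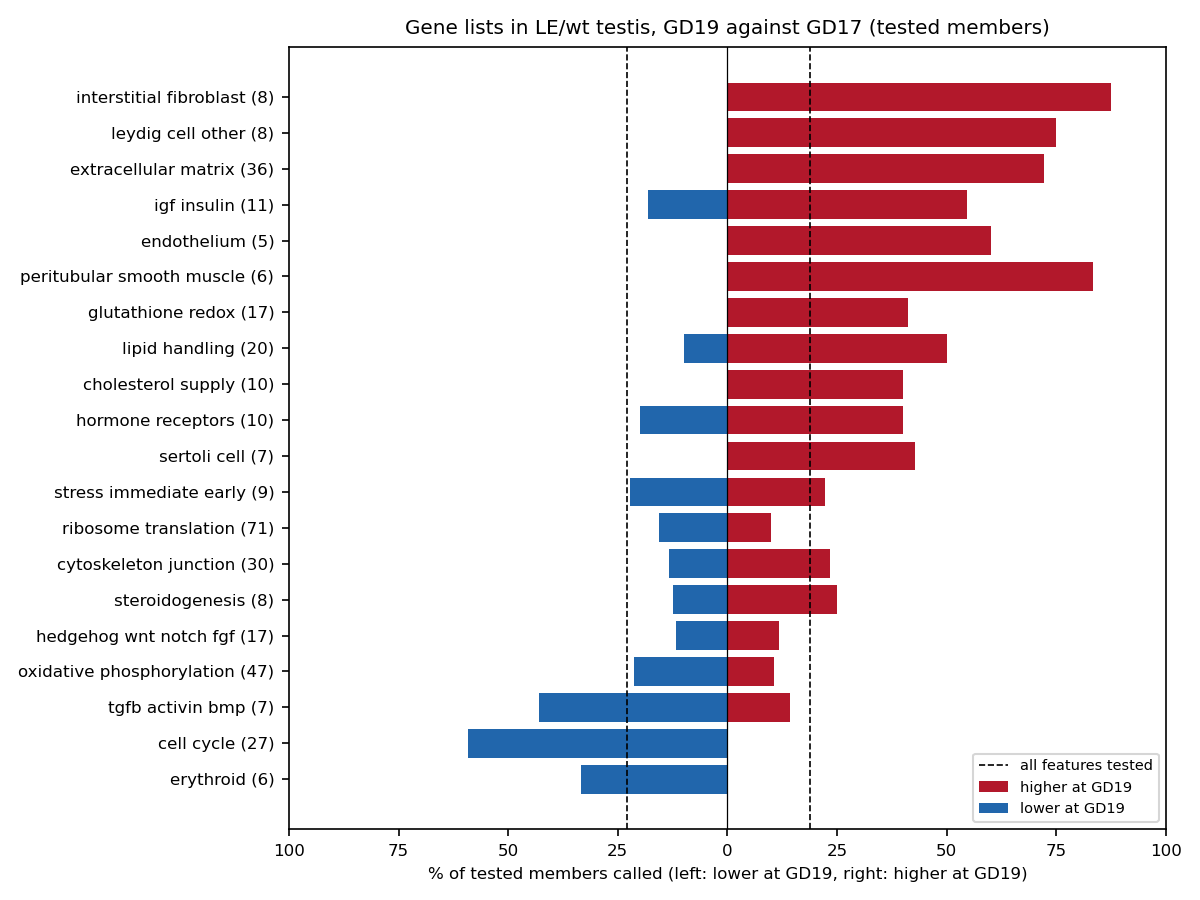
Share of the tested members of each gene list, in percent, that were called higher at GD19 (right of 0) or lower at GD19 (left of 0) in LE/wt testis; numbers in brackets are tested members, dashed lines are the shares over all features (18.9% higher, 22.9% lower), and lists with at least 5 tested members are shown. The fibroblast, smooth muscle, Leydig cell and matrix lists lie mostly on the right and the cell cycle list on the left.

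Leydig cell genes outside the steroid pathway were mostly higher at GD19. The list of other Leydig cell genes had 8 tested members, of which 6 were called higher and none lower, with a median change of 0.65. Over all features, 18.9% were called higher and 22.9% lower. Lhcgr, the receptor through which luteinising hormone drives Leydig cells, stood at 9.66, 9.84, 9.68, 9.87 and 9.65 in GD19 testes, against 8.25, 8.74, 8.22, 8.58 and 8.32 in GD17 testes. All 5 GD19 testes lay above all 5 GD17 testes, and the change was 1.32 ± 0.11 on the log2 scale (SE, n = 5 each, limma adjusted p = 6.09e-09), a fold of 2.49. Prlr, the prolactin receptor, was at 8.04, 8.36, 8.07, 8.19 and 8.22 at GD19, against 6.81, 7.34, 6.39, 6.97 and 6.93 at GD17, again without overlap. Its change was 1.29 ± 0.17 (limma adjusted p = 4.95e-06). Igfbp3, which binds insulin-like growth factors in serum and tissue, had 11.07, 11.03, 10.67, 11.00 and 11.06 at GD19, against 9.44, 9.64, 10.24, 9.40 and 9.69 at GD17. The groups did not overlap and the change was 1.28 ± 0.15 (limma adjusted p = 6.85e-07), while its dimmer probe set changed by 0.34 (adjusted p = 0.0165), so the size depended on the probe set. Smaller rises were measured for Hpgd (0.83), which inactivates prostaglandins, Pdgfra (0.48), the receptor for platelet-derived growth factor on Leydig cell progenitors and other mesenchyme, and Cst3 (0.37), a secreted protease inhibitor. Nr2f2 (0.16, adjusted p = 0.254) and Gli2 (0.06, adjusted p = 0.655), transcription factors of interstitial progenitors, were not called.

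Within steroid synthesis, the highest change among the named genes was at the step of cholesterol uptake. Only 8 of the 36 genes of the list had a named probe set; Star, Cyp11a1, Cyp17a1 and Hsd3b1, and the Leydig cell hormone gene Insl3, were not among the named genes and were not analysed here. Of the 8 tested, 2 were called higher and 1 lower, with a median change of -0.00. The share called, in either direction, was near the 41.7% over all features. Scarb1, the receptor that brings cholesterol from high-density lipoprotein into steroid-making cells, had 11.17, 11.35, 11.52, 11.51 and 11.45 in GD19 testes, against 9.52, 9.86, 9.07, 9.50 and 9.69 in GD17 testes. The lowest GD19 testis was above the highest GD17 testis, and the change of 1.87 ± 0.11 (limma adjusted p = 8.59e-11) was a fold of 3.66. Fdx1, ferredoxin, which passes electrons to the mitochondrial P450 enzymes of steroid synthesis, stood at 12.57, 12.73, 12.64, 12.76 and 12.97 at GD19, against 12.07, 12.21, 11.76, 12.26 and 12.27 at GD17. Its change was 0.62 ± 0.11 (limma adjusted p = 0.000131), with no overlap. Acbd3, a Golgi protein that binds the cholesterol transport machinery, was lower by a small amount (-0.24 ± 0.09, adjusted p = 0.0346), and that call was lost when any 1 of 5 arrays was left out (adjusted p 0.052 to 0.118) or when arrays were centred on their medians (adjusted p = 0.0511). Por, Cyb5a and Cyb5b, electron donors of the microsomal P450 enzymes, changed by -0.06, -0.03 and 0.03 and were not called, nor were Mgst1 (0.20, adjusted p = 0.0807) and Akr1b1 (-0.07, adjusted p = 0.446).

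The promoter of Fdx1 is shown because Fdx1 was, of the called members with a promoter entry, the one with the lowest p. It is the 250 bases before the RefSeq start on chr8:61183646-61183895, minus strand, of the GRCr8 build, printed 5′ to 3′. The letters AAGGTCA, the core of the site of steroidogenic factor 1 and its relatives, were searched on both strands and were not in this window; 3.99% of the 33469 promoter windows of this length in the table hold them.
Fdx1: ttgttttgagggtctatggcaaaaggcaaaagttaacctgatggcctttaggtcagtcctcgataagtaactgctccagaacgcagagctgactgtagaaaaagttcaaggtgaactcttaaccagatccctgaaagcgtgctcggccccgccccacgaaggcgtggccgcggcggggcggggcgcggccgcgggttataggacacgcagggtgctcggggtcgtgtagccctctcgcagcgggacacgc

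Some cholesterol and fatty acid genes were higher at GD19. In the list of cholesterol synthesis and supply, 4 of 10 tested members were called higher and none lower (median 0.20). Over all features 18.9% were called higher and 22.9% lower. The share of the cholesterol list called in either direction was close to the 41.7% over all features. Tm7sf2, a sterol reductase, had 7.91, 8.41, 8.42, 8.58 and 8.30 at GD19, against 7.09, 6.93, 7.05, 7.41 and 7.58 at GD17, a change of 1.11 ± 0.13 (limma adjusted p = 1.18e-06) without overlap. Npc2, which moves cholesterol out of lysosomes, rose by 0.55, Insig1, a sterol-sensing brake on cholesterol synthesis, by 0.40, and Dhcr7, the last reductase of cholesterol synthesis, by 0.35. In the lipid list 10 of 20 were called higher and 2 lower (median 0.26). Fabp3, a cytosolic fatty acid carrier, stood at 11.63, 11.72, 11.58, 11.55 and 11.57 at GD19, against 10.51, 10.67, 10.25, 10.52 and 10.52 at GD17, a change of 1.12 ± 0.08 (limma adjusted p = 2.46e-09). Scd, the stearoyl-CoA desaturase, changed by 1.18 and Cpt1a, which admits fatty acids to mitochondria, by 0.59, whereas Elovl6, a fatty acid elongase, fell by 0.60. Scd was below the minimum level of 5 in every GD17 array of both strains, so it entered the test only through GD19 arrays.

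**Figure D2:**
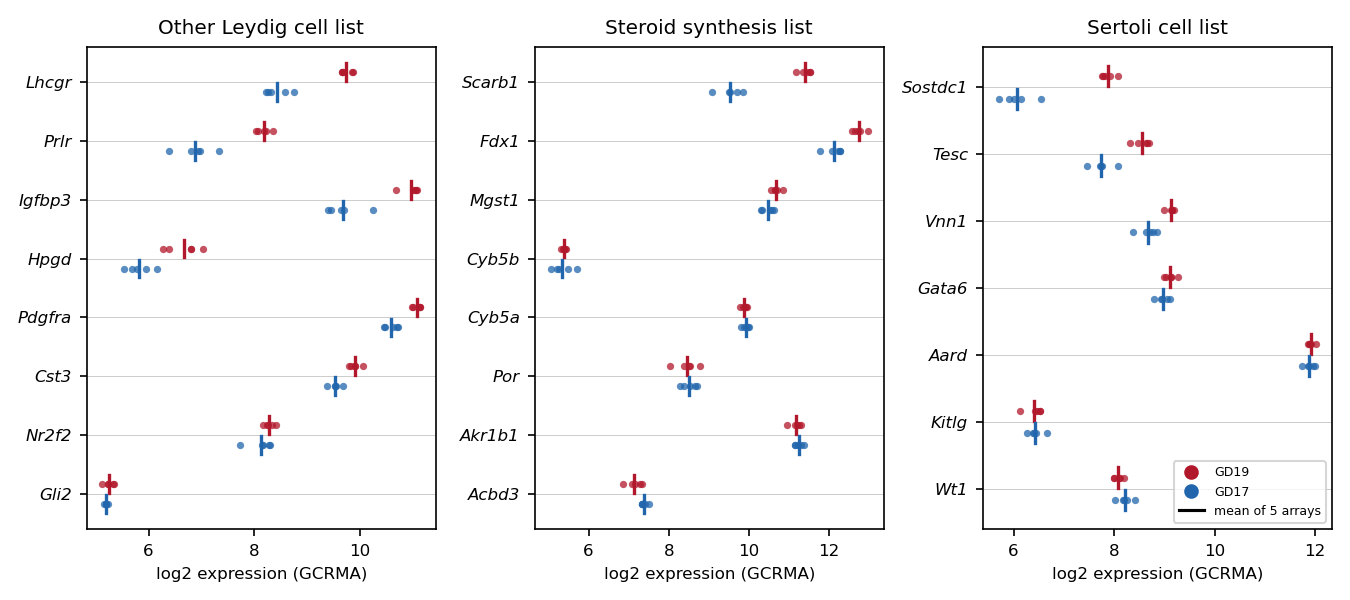
Log2 GCRMA level (x axis) of each tested member of 3 gene lists in LE/wt testis, with 1 point per array, GD19 above GD17 for each gene, and a bar at the mean of 5 arrays. Scarb1, Lhcgr, Prlr, Igfbp3 and Sostdc1 separate the days completely, while Aard, Wt1, Por and Cyb5a overlap.

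Of the Sertoli cell list, 3 of 7 tested members were called higher and none lower, with a median change of 0.14. The share called, in either direction, was close to the 41.7% over all features. Sostdc1, a secreted antagonist of bone morphogenetic protein and Wnt signals, had 7.77, 8.08, 7.75, 7.82 and 7.92 in GD19 testes, against 5.91, 6.55, 6.01, 6.15 and 5.70 in GD17 testes. Every GD19 testis was above every GD17 testis, and the change was 1.80 ± 0.14 (limma adjusted p = 3.77e-09), a fold of 3.49. Tesc, tescalcin, a calcium-binding protein of embryonic testis, was at 8.65, 8.63, 8.70, 8.47 and 8.31 at GD19, against 7.71, 7.75, 7.46, 8.07 and 7.73 at GD17, a change of 0.81 ± 0.11 (limma adjusted p = 8.65e-06). Vnn1, vanin 1, a pantetheinase of Sertoli cells, rose by 0.46 (adjusted p = 0.00332). Aard, a gene expressed in Sertoli cells, had a level of 11.91 ± 0.07 at GD19 and 11.89 ± 0.10 at GD17 (SD), and Wt1, a transcription factor needed for Sertoli cells, one of 8.08 ± 0.08 at GD19 and 8.21 ± 0.15 at GD17; neither was called. Gata6 (0.14) and Kitlg (-0.02), a transcription factor of somatic gonad cells and the ligand of the germ cell receptor Kit, were not called either. Aard, Wt1, Gata6, Lhcgr and Scarb1, which mark cells of the testis, were above the minimum level of 5 used for testing in every array; Amh, Sox9 and Dhh were not among the named genes and were not analysed here.

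Germ cell markers could barely be followed. Only 3 members were named: Dnd1, which germ cells need to survive, changed by 0.01 and Ifitm3, a membrane protein of early germ cells, by 0.09, both not called. Zp2, an egg coat protein gene, ranged from 2.43 to 3.72 in GD19 testes and from 2.48 to 6.11 in GD17 testes, overlapping widely. Zp2 entered the test through the LE/orl arrays, since 8 of the 10 LE/wt arrays were below the minimum level of 5. Its change of -1.29 ± 0.47 in LE/wt passed the threshold (adjusted p = 0.0307) at levels where the scale is least certain, and leaving out GD17 replicate B (-0.91, adjusted p = 0.106), GD17 replicate A (-0.96, adjusted p = 0.102), GD17 replicate D (-1.21, adjusted p = 0.0656) or GD19 replicate D (-1.08, adjusted p = 0.0849) ended the call.

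Most tested muscle-like, fibroblast and matrix genes were higher at GD19. In the list of peritubular and smooth muscle genes 5 of 6 were called higher and none lower (median 0.35). In that of interstitial fibroblasts 7 of 8 were called higher and none lower (median 0.68). The background over all features was 18.9% higher and 22.9% lower. Tagln, transgelin, an actin-binding protein of smooth muscle, had 10.06, 9.93, 10.08, 9.94 and 9.89 at GD19, against 8.67, 8.20, 8.37, 8.09 and 8.12 at GD17. The days were more than 1 unit apart at their nearest arrays, and the change was 1.69 ± 0.13 (limma adjusted p = 3.10e-09), a fold of 3.22. Acta2, smooth muscle actin, stood at 8.89, 8.94, 8.95, 8.90 and 8.83 at GD19, against 8.38, 7.90, 8.10, 7.80 and 7.96 at GD17, a change of 0.87 ± 0.17 (limma adjusted p = 0.00031). Myl9, a myosin light chain, and Tpm1, a tropomyosin, rose by 0.35 and 0.34, and of the other probe sets of Tpm1 1 was called (0.53) and 1 was not (0.19, adjusted p = 0.618). In the nerve list, Uchl1, a deubiquitinase of neurons and germ cells, rose by 0.81, and Ngfr, the low-affinity nerve growth factor receptor, changed by -0.12 and was not called.

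Of the 36 tested genes of extracellular matrix, 26 were called higher, none lower and 10 were not called, against a background of 18.9% higher and 22.9% lower. The median change was 0.40, and 24 of the 36 had GD19 and GD17 testes that did not overlap, where 30.3% of all features did so. Lama2, the laminin chain of muscle and peripheral nerve basement membrane, had 8.30, 8.52, 8.53, 8.51 and 7.84 at GD19, against 6.35, 5.86, 6.63, 6.53 and 6.29 at GD17, a change of 2.01 ± 0.15 (limma adjusted p = 2.72e-09). Dcn, decorin, a proteoglycan that binds collagen fibrils, was at 11.68, 11.63, 11.59, 11.55 and 11.37 at GD19, against 10.40, 10.13, 10.28, 10.15 and 10.45 at GD17, a change of 1.28 ± 0.12 (limma adjusted p = 7.02e-08). Col6a1, a chain of the beaded collagen VI, rose by 1.03 ± 0.11, Mfap4, a microfibril-associated protein, by 0.77 ± 0.09, and Col1a1, the main chain of fibrillar collagen I, by 0.73 ± 0.14. Fbn1, fibrillin, the scaffold of microfibrils, rose by 0.42 ± 0.09. Spon1, spondin, a secreted matrix protein outside this list, had 6.83, 8.19, 7.08, 6.75 and 6.79 at GD19, against 4.97, 4.96, 5.13, 5.40 and 5.06 at GD17. GD19 replicate B was far above the other 4 testes of its day, and the change was 2.02 with it and 1.76 without it.

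**Figure D3:**
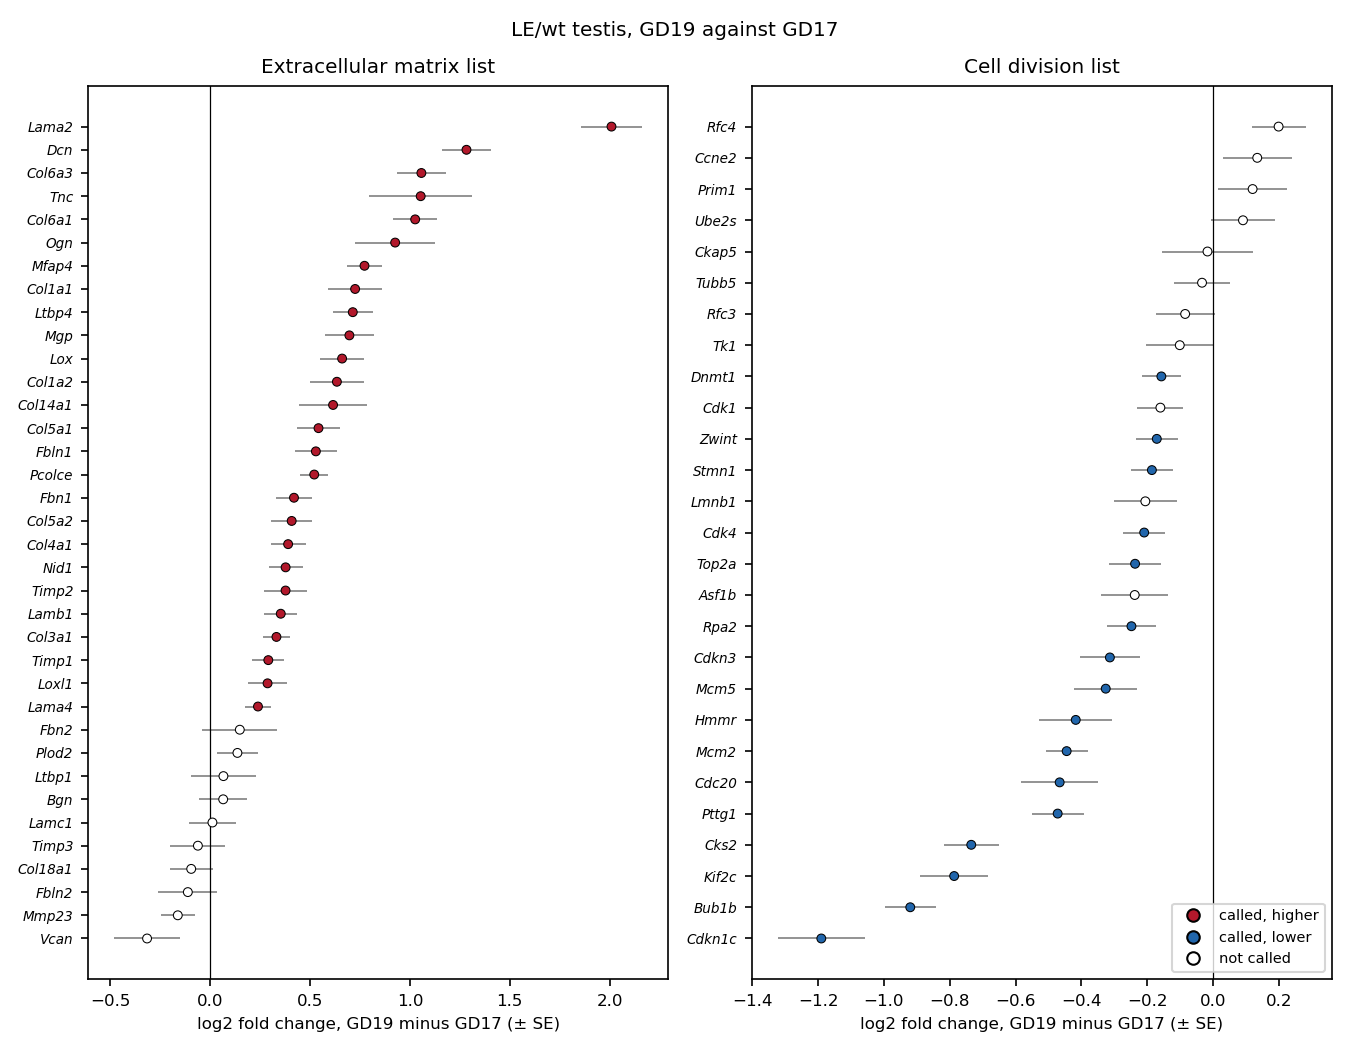
Log2 fold change GD19 minus GD17 (x axis, with SE) of every tested gene of the matrix list (left, 36 genes) and of the cell division list (right, 27 genes) in LE/wt testis. Filled points passed the adjusted p: 26 matrix genes, all above 0, and 16 cell division genes, all below 0.

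Several vessel genes were higher at GD19, and a minority of red blood cell genes was lower. Of 5 endothelial genes, 3 were called higher: Cav1, caveolin, by 0.80 (adjusted p = 9.39e-06), Cdh5, the cadherin of vessel walls, by 0.36 (adjusted p = 0.02) and Icam2, an adhesion protein, by 0.45 (adjusted p = 0.0415). The call of Cdh5 was lost without GD17 replicate B (adjusted p = 0.0669), and that of Icam2 without any 1 of 8 arrays (adjusted p 0.051 to 0.14). Of 3 macrophage and leukocyte genes only Lgals3, galectin 3, was called (0.59, adjusted p = 0.0281), and leaving out GD17 replicate B took it to 0.46 (adjusted p = 0.0902). Of 6 red cell genes, 2 were called lower, Hbe1 among them, and none higher. The shares over all features, for the vessel and red cell counts alike, were 18.9% higher and 22.9% lower. No list was tested against these shares. Hbe1, an embryonic beta-like globin made by primitive red cells, had 11.61, 11.51, 11.28, 11.21 and 11.77 in GD19 testes, against 13.64, 13.35, 13.72, 13.55 and 13.66 in GD17 testes. It had the lowest change of all named genes, -2.11 ± 0.16 (limma adjusted p = 3.54e-09), with more than 1 unit between the days. Car1, a red cell carbonic anhydrase, had 3.00, 2.86, 2.64, 2.93 and 2.71 at GD19, against 3.62, 3.17, 5.80, 3.03 and 3.19 at GD17, and was not called (-0.93, adjusted p = 0.133). GD17 replicate C was the highest of its group for Car1 and for Urod, an enzyme of haem synthesis. The mean log2 level over the 6 red cell genes was 7.47 to 7.58 in GD19 testes and 7.95 to 8.75 in GD17 testes, and blood left in the organs at dissection was not measured.

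Most of the tested cell division genes were lower at GD19. Of 27 tested members, 16 were called lower, none higher and 11 were not called, with a median change of -0.21, against 22.9% lower over all features. Bub1b, a spindle checkpoint kinase, had 7.24, 7.20, 6.97, 7.23 and 7.01 in GD19 testes, against 8.06, 8.18, 7.94, 8.05 and 8.03 in GD17 testes, a change of -0.92 ± 0.08 (limma adjusted p = 1.26e-08). Kif2c, a kinesin that takes microtubules apart at kinetochores, stood at 5.94, 6.00, 6.13, 5.97 and 5.86 at GD19, against 6.87, 6.71, 6.78, 6.93 and 6.53 at GD17, a change of -0.79 ± 0.10 (limma adjusted p = 4.66e-06). Cks2, a small partner of cyclin-dependent kinases, was at 11.22, 11.15, 11.08, 11.21 and 11.27 at GD19, against 11.81, 12.14, 11.96, 11.95 and 11.75 at GD17, a change of -0.73 ± 0.08 (limma adjusted p = 7.49e-07). In each of these genes every GD19 testis was below every GD17 testis. The lowest change of the list was that of Cdkn1c, which works the other way: it encodes an imprinted inhibitor of cyclin-dependent kinases. Cdkn1c had 10.77, 10.73, 10.34, 11.08 and 10.44 at GD19, against 12.21, 11.80, 11.51, 11.66 and 12.13 at GD17, a change of -1.19 ± 0.13 (limma adjusted p = 5.04e-07).

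The promoters of Bub1b, Cks2 and Kif2c are shown because these genes, all of mitosis, had the lowest p among the called members with a promoter entry. The windows are the 250 bases before the RefSeq start in GRCr8, on chr3:126016817-126017066 (plus strand) for Bub1b, chr17:13727520-13727769 (minus strand) for Cks2 and chr5:135899213-135899462 (minus strand) for Kif2c, printed 5′ to 3′. Capitals mark TTTGAA, the core of the cell cycle homology element, and CCAAT, the box bound by NF-Y, searched on both strands; the motifs were chosen after the results were seen.
Bub1b: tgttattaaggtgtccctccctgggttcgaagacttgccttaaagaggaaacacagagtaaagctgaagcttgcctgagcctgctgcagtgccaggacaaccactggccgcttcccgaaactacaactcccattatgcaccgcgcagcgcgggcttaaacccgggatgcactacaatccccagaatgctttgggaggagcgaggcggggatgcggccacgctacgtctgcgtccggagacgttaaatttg
Cks2: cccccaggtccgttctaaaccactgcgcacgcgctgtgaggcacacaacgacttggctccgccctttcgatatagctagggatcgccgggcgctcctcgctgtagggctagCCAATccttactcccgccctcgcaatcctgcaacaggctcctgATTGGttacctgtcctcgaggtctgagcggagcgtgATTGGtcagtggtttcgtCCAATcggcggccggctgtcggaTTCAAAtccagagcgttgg
Kif2c: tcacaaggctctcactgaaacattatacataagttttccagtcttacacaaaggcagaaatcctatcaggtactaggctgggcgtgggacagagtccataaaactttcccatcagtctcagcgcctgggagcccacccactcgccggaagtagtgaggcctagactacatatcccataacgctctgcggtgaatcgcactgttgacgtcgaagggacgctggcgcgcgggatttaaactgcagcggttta

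The Cks2 window holds CCAAT at -139 and -42 from the start and, on the reverse strand, at -96 and -60, with TTTGAA on the reverse strand at -19. Neither motif is in the windows of Bub1b and Kif2c. Of the 16 lower genes, 14 had a promoter entry, and 7 of these windows (50.0%) held TTTGAA and 9 (64.3%) CCAAT, where 16.2% and 34.0% of all 33469 windows did. Among the 10 cell division genes with an entry that were not called, 3 held TTTGAA and 7 held CCAAT, so the motifs were also frequent in members that did not pass the test.

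Growth factor signalling genes had calls in both directions. Of 11 genes of the insulin-like growth factor list, 6 were called higher and 2 lower, against 18.9% higher and 22.9% lower over all features. Igfbpl1, a secreted protein related to the binding proteins, had 6.67, 6.79, 6.60, 6.56 and 6.23 at GD19, against 4.22, 4.60, 3.63, 4.37 and 3.55 at GD17, a change of 2.50 ± 0.17 (limma adjusted p = 6.22e-10). Its GD17 levels were below the minimum of 5 in all arrays of both strains, where the scale is least certain, so it entered the test only through GD19 arrays. Igfbp6, a binding protein that prefers IGF2, was at 6.53, 6.58, 6.93, 6.74 and 6.77 at GD19, against 5.26, 5.28, 5.17, 5.14 and 5.37 at GD17, a change of 1.46 ± 0.12 (limma adjusted p = 9.22e-09), while its other probe set changed by 0.88 (adjusted p = 0.00133). Htra3, a secreted protease, rose by 0.82. Among 7 genes of the transforming growth factor beta family, 1 was called higher and 3 lower, against the same shares over all features. Bmp7, a secreted ligand of the bone morphogenetic protein class, stood at 6.00, 6.11, 6.58, 6.07 and 6.22 at GD19, against 7.54, 7.55, 7.70, 7.42 and 7.31 at GD17, a change of -1.31 ± 0.12 (limma adjusted p = 2.55e-08). Fstl1, a secreted follistatin-like protein, rose by 0.56, and Bambi, a decoy receptor, fell by 0.46. Smad2, a signal carrier of the pathway, had a change of -0.19 (adjusted p = 0.0241) that was lost when any 1 of 4 arrays was left out (adjusted p 0.0515 to 0.0803).

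In the hedgehog, Wnt, Notch and fibroblast growth factor list 2 of 17 were called higher and 2 lower, shares below those over all features (18.9% higher, 22.9% lower). Fgfr2, a fibroblast growth factor receptor, had 6.25, 6.58, 6.32, 6.62 and 6.43 at GD19, against 7.07, 7.14, 7.54, 7.33 and 7.44 at GD17, a change of -0.86 ± 0.10 (limma adjusted p = 5.11e-07). Dusp6, a phosphatase that restrains the kinase ERK, changed by 1.00 at its brighter probe set and by -0.82 at the other, both called, so its direction in LE/wt testis was not settled. Egr1, an immediate early transcription factor, changed by -0.28 (adjusted p = 0.0476), a call lost without any 1 of 6 arrays (adjusted p 0.0703 to 0.135). Nppc, C-type natriuretic peptide, a secreted ligand that raises cyclic GMP, had 6.11, 6.22, 5.62, 6.33 and 5.68 at GD19, against 8.18, 7.94, 7.69, 7.75 and 8.43 at GD17. This change of -2.01 ± 0.18 (limma adjusted p = 2.36e-08) was a 4.02-fold lower level.

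Retinoid and hormone receptor genes also had calls in both directions, with 4 of 10 called higher and 2 lower. Over all features 18.9% were called higher and 22.9% lower, so the share called lower was close to the background. Aldh1a2, which makes retinoic acid, was at 8.74, 8.58, 8.64, 8.98 and 8.61 at GD19, against 9.25, 9.14, 9.52, 9.24 and 9.59 at GD17, a change of -0.64 ± 0.12 (limma adjusted p = 0.000169). The called members of this list with the lowest p were the receptors Lhcgr and Prlr.

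Of 17 glutathione and redox genes, 7 were called higher and none lower, with a median of 0.28. The share of this list called, in either direction, was close to the 41.7% over all features. Gsta2, a glutathione transferase, had 6.76, 6.70, 6.09, 7.25 and 6.01 at GD19, against 4.40, 4.45, 3.56, 4.57 and 4.14 at GD17, a change of 2.34 ± 0.23 (limma adjusted p = 1.26e-07). Its GD17 levels were all below the minimum of 5, in both strains, so it entered the test only through GD19 arrays. Genes of this family share sequence, and which members the probes detect was not tested. Aldh2, the mitochondrial aldehyde dehydrogenase, rose by 1.06 ± 0.10, Gss, glutathione synthetase, by 0.60, and Prdx4, a peroxiredoxin of the endoplasmic reticulum, by 0.47. Of 47 genes of oxidative phosphorylation, 5 were called higher and 10 lower, shares below the background in each direction, with a median of -0.05. The subunit genes with the lowest p were Cyc1 (-0.48), Uqcrc2 (-0.34), Cox5a (-0.45) and Sdhd (-0.31), whose other probe set was not called (-0.28, adjusted p = 0.0801). The 5 called higher, listed after their values were seen, were Ndufv3 (0.36), Cox8a (0.31), Cox5b (0.27), Ndufb11 (0.19) and Atp5mc1 (0.19), also subunit genes. Of 71 genes of ribosomes and translation, 7 were called higher and 11 lower (median 0.04), again below the background in each direction, with Eif4ebp1, the repressor of cap-dependent translation, at 0.80, Eif2s3 at -0.47, Rps3 at -0.35 and Rps20 at 0.24.

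**Figure D4:**
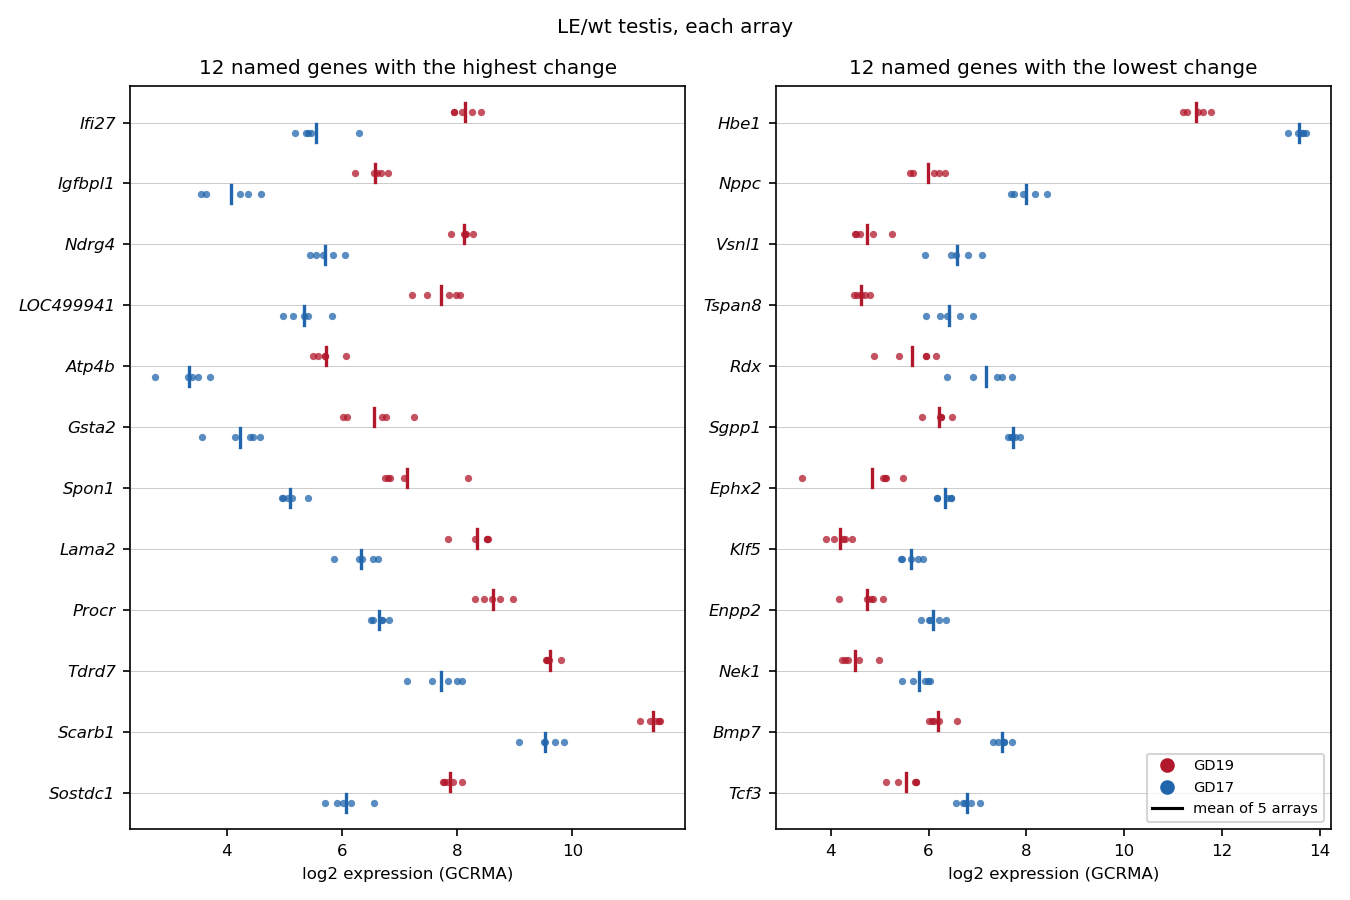
Log2 GCRMA level (x axis) in each LE/wt testis of the 12 named genes with the highest change (left) and the 12 with the lowest change (right) among called genes whose days do not overlap; GD19 is drawn above GD17, with 1 point per array and a bar at the mean of 5. Changes run from 2.59 for Ifi27 down to 1.80 for Sostdc1 on the left, and from -2.11 for Hbe1 up to -1.24 for Tcf3 on the right.

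Several of the largest changes lay outside these groups. Ifi27, an interferon-inducible protein, had 7.95, 7.94, 8.42, 8.26 and 8.09 at GD19, against 5.46, 5.40, 5.19, 5.37 and 6.29 at GD17, the highest change of the named genes at 2.59 ± 0.19 (limma adjusted p = 2.11e-09). Ndrg4, a cytoplasmic protein of the N-myc downstream-regulated family, stood at 8.14, 8.27, 8.16, 8.11 and 7.89 at GD19, against 5.54, 5.44, 6.05, 5.66 and 5.85 at GD17, a change of 2.41 ± 0.11 (limma adjusted p = 1.95e-12). Tdrd7, a tudor-domain protein of RNA granules, was at 9.56, 9.60, 9.56, 9.54 and 9.80 at GD19, against 7.57, 7.99, 8.09, 7.84 and 7.13 at GD17, a change of 1.89 ± 0.15. None of these genes had overlapping days, which the rule for naming them required. Procr, the endothelial protein C receptor, rose by 1.97 and Atp4b, the beta subunit of the gastric proton pump, by 2.37. Atp4b had levels of 5.50 to 6.07 at GD19 and of 2.76 to 3.71 at GD17, near the bottom of the scale. It entered the test only through the GD19 LE/wt arrays, since every other testis array was below the minimum of 5, so its rise is no free result. LOC499941, a locus listed without a gene name, rose by 2.38.

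Among the falls, Vsnl1, a neuronal calcium sensor, had 4.50, 4.51, 4.60, 5.25 and 4.86 at GD19, against 6.56, 6.81, 5.93, 6.46 and 7.10 at GD17, a change of -1.83 ± 0.18. Tspan8, a tetraspanin of epithelia, was at 4.47, 4.69, 4.81, 4.53 and 4.62 at GD19, against 5.95, 6.65, 6.24, 6.37 and 6.91 at GD17, a change of -1.80 ± 0.14. Sgpp1, a phosphatase of sphingosine 1-phosphate, stood at 5.87, 6.48, 6.25, 6.23 and 6.25 at GD19, against 7.87, 7.77, 7.63, 7.68 and 7.71 at GD17, a change of -1.52 ± 0.10. All 3 were lower in every GD19 testis than in any GD17 testis, which the rule for naming them required. Rdx, radixin, which ties actin to the membrane, changed by -1.52, Ephx2, the soluble epoxide hydrolase, by -1.49, Klf5, a transcription factor of epithelia, by -1.45, Enpp2, autotaxin, by -1.36, Nek1, a kinase of the NIMA family, by -1.33 and Tcf3 by -1.24. The GD19 means of Vsnl1, Tspan8, Ephx2, Klf5, Enpp2 and Nek1 were below 5, so these folds are uncertain. Klf5 entered the test only through the GD17 LE/wt arrays, since every other testis array was below 5. In LE/wt testis only the GD17 arrays of Tspan8 and Nek1 reached that minimum. For Enpp2 and Vsnl1 the only GD19 LE/wt array to reach it was replicate D (5.06 and 5.25). Ephx2 had 1 low array, GD19 replicate C, and its change was -1.13 without it.

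Markers of striated muscle, as found next to the testis, were mostly below the minimum level. Of 33 named genes of striated muscle, 30 did not reach the minimum level, among them Ckm, Acta1, Myh3 and Myog. The 3 that did were Tnnc1 (1.05), Tnnt2 (-0.93) and Tnni1 (-0.03, not called), and GD19 replicate D had the highest level of its day for each: 8.72 for Tnnc1, 5.53 for Tnnt2 and 7.78 for Tnni1, where the next highest for Tnni1 was 5.30. Podxl, a marker of kidney podocytes, changed by -0.07 and was not called, and Rarres2, the only named marker of mesonephric epithelium, had a change of 0.34 (adjusted p = 0.0295) that was lost without any 1 of 4 arrays (adjusted p 0.056 to 0.0819). Among stress genes, Cebpb, a transcription factor of inflammation and fat, rose by 1.05, and Hspb1, a small heat shock protein, by 0.71. Gadd45g, a growth arrest protein, changed by -0.58. In the stress list 2 of 9 tested members were called higher and 2 lower, close to the shares over all features (18.9% higher, 22.9% lower).

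The changes of largest size were carried by probe sets without a gene name. Probe set 1374384_at had 6.80, 7.04, 6.42, 6.27 and 6.65 at GD19, against 2.43, 2.47, 2.44, 2.48 and 2.43 at GD17, a change of 4.18 ± 0.14. Probe set 1368768_at had 7.00, 7.02, 6.44, 6.90 and 5.98 at GD19, against 2.83, 2.81, 2.81, 2.82 and 3.43 at GD17, a change of 3.73 ± 0.21. Both lay near the bottom of the scale at GD17, where GCRMA values have little spread and folds are uncertain. In LE/wt testis only their GD19 arrays reached the minimum level of 5, and only the GD17 arrays of probe set 1373686_at, given below, did. Probe set 1390722_at had 6.23, 6.32, 5.73, 5.97 and 5.69 at GD19, against 10.18, 10.84, 11.11, 10.17 and 10.21 at GD17, a change of -4.51 ± 0.17. Probe set 1373686_at had 2.39, 3.38, 2.60, 2.42 and 2.74 at GD19, against 5.87, 6.70, 9.66, 6.71 and 6.49 at GD17, a change of -4.38 ± 0.67 that was -3.74 without GD17 replicate C, the array that was also high for Car1.

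The same 2 days were then compared between strains, by testing whether the change from GD17 to GD19 differed in LE/orl and LE/wt testis. Of 7878 features, 743 (9.43%) passed this test, 376 with a higher change in LE/orl and 367 with a lower one. In LE/orl testis 4375 features (55.5%) were called for the day change itself, and 2512 were called in the same direction in both strains, which is 57.4% of the LE/orl calls and 76.4% of the LE/wt calls, while 30 were called in opposite directions. Among named genes 331 (12.9%) differed between strains, against 412 of the unnamed features (7.75%); part of the names come from a list the study selected for strain differences in these testes, so the first share is no independent count.

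The strains differed in 1 direction over the matrix genes: 24 of 36 had a higher change in LE/orl testis and none a lower one, against 4.77% and 4.66% of all features. The median change was 0.96 in LE/orl and 0.40 in LE/wt testis. Averaged over the 36 genes, the log2 level was 8.91 to 9.05 in GD19 LE/orl testes and 7.76 to 8.06 in GD17 LE/orl testes, and 8.96 to 9.09 in GD19 LE/wt testes and 8.34 to 8.65 in GD17 LE/wt testes. The arrays of the strains thus overlapped at GD19 and were apart at GD17, where LE/orl was lower. Fbn1, for example, averaged 9.81 ± 0.13 at GD19 and 8.35 ± 0.16 at GD17 in LE/orl, and 9.55 ± 0.10 at GD19 and 9.13 ± 0.16 at GD17 in LE/wt (SD, n = 5 each), a difference between changes of 1.04 (limma adjusted p = 0.000102). Its dimmer probe set was not called for the day change in LE/wt (0.23, adjusted p = 0.37). Lama2 changed by 3.29 in LE/orl and 2.01 in LE/wt, Dcn by 2.10 in LE/orl and 1.28 in LE/wt, and Col1a1 by 1.74 in LE/orl and 0.73 in LE/wt, and each of these differences passed the test. The fibroblast list, which shares members with the matrix list, had 6 of 8 with a higher change in LE/orl. In the same testes the mean log2 level of the 6 red cell genes was 8.48 to 9.55 in GD17 LE/orl and 7.95 to 8.75 in GD17 LE/wt, and its part in the strain differences was not tested.

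**Figure D5:**
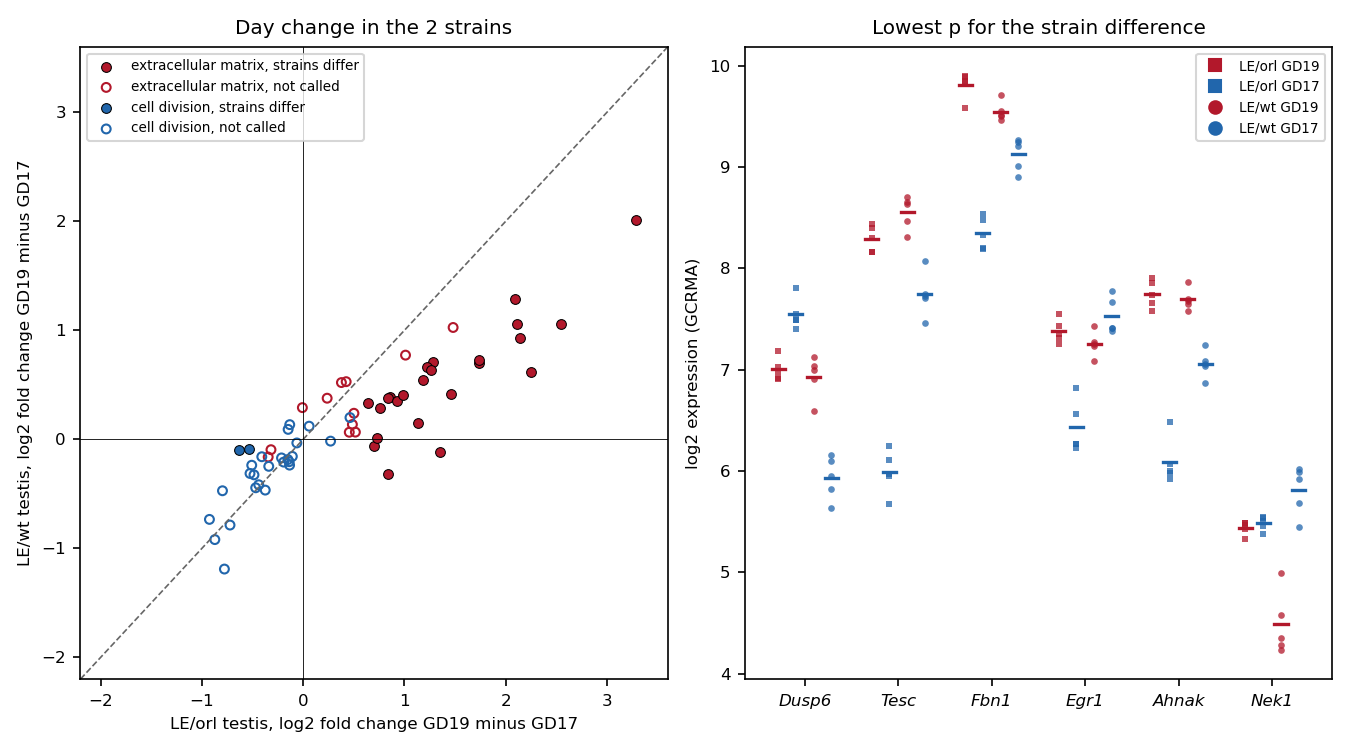
Left: log2 fold change GD19 minus GD17 in LE/orl testis (x axis) against LE/wt testis (y axis) for the genes of the matrix and cell division lists, with filled points where the strains differed (24 of 36 matrix genes, all below the line of equal change, and 2 of 27 cell division genes). Right: log2 GCRMA level in each testis of the 6 named genes with the lowest p for the strain difference, with LE/orl as squares, LE/wt as circles and bars at the mean of 5.

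Of the cell division genes, 2 of 27 differed between strains, against 9.43% of all features. The median change of the 27 was -0.37 in LE/orl and -0.21 in LE/wt testis. Bub1b changed by -0.87 in LE/orl and -0.92 in LE/wt, and Kif2c by -0.72 in LE/orl and -0.79 in LE/wt; neither difference passed the test, which does not show that the strains were alike. Of 47 genes of oxidative phosphorylation, 9 had a lower change in LE/orl and none a higher one, against 4.66% lower and 4.77% higher over all features. Of the 8 other Leydig cell genes, 1, Pdgfra, differed: it changed by 1.21 in LE/orl and 0.48 in LE/wt. Scarb1 changed by 1.56 in LE/orl and 1.87 in LE/wt, and Lhcgr by 1.61 in LE/orl and 1.32 in LE/wt, and neither difference passed.

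Among the 6 named genes with the lowest p, Tesc rose further in LE/orl: it stood at 8.30, 8.44, 8.40, 8.16 and 8.16 in GD19 LE/orl testes and 5.97, 6.25, 5.67, 6.11 and 5.95 in GD17 LE/orl testes, a change of 2.30 against 0.81 in LE/wt (difference 1.49 ± 0.16, limma adjusted p = 1.12e-05). Egr1 changed by 0.95 in LE/orl and -0.28 in LE/wt (difference 1.23, limma adjusted p = 0.000113), and Ahnak, a giant scaffold protein, by 1.66 in LE/orl and 0.63 in LE/wt (difference 1.03, limma adjusted p = 0.000275). Nek1 changed by -0.05 in LE/orl and -1.33 in LE/wt (difference 1.28, limma adjusted p = 0.000275). Dusp6 had the lowest p, with -0.54 in LE/orl and 1.00 in LE/wt at its brighter probe set, but its probe sets pointed opposite ways in LE/wt testis. Probe set 1390722_at, without a gene name, changed by 0.41 in LE/orl and -4.51 in LE/wt (difference 4.92, limma adjusted p = 1.51e-11).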

How the data were processed

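RNA of single left testes was measured on 1-colour Affymetrix arrays of 15923 probe sets. The deposited values are log2 levels made by the authors with GCRMA (background correction, quantile normalisation and summary of probes), per the submitters' processing notes, and nothing says which arrays were normalised as one set. The authors' deposited lists also hold group means as linear GCRMA intensities, rounded to whole numbers; for 349 probe sets these intensities matched, within 0.51, group means of the log2 values turned to the linear scale, on both days. Of 3922 probe sets on the authors' deposited gene lists, 3008 had 1 symbol, 165 several and 749 none; 707 symbols were updated through RefSeq synonyms and 237 kept as listed, which gave 2844 named genes. Other probe sets are unnamed here.

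limma 3.58.1 in R 4.3.3 was fitted to all 20 testis arrays with 1 mean per group, on the brightest probe set of each named gene and every unnamed probe set, with a log2 minimum of 5 in at least 5 arrays. Features were called at a Benjamini-Hochberg adjusted p under 0.05 over all 7878. The fit was tested on simulated data. With 5 arrays a group, the number of arrays limits the precision. Replicate letters pair nothing: deviations of same-letter arrays correlated at -0.08 to 0.14, over 0.1 for 1 of 5 letters. The members and the 26 gene lists were chosen with earlier results of these data known. The text names the 12 highest and 12 lowest called genes without overlap, up to 4 members with the lowest p of each list, all tested members of the Leydig, steroid, Sertoli, germ and red cell lists, and the 6 lowest p for the strain difference, except 2 genes that are counted in their lists but not reported here; the 4 unnamed probe sets and the motifs of cell division promoters were chosen after their values were seen. Alternatives were the signal minimum, the probe set rule, the samples in the fit, the normalisation, array weights, a replicate block and leaving out each LE/wt array.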

Additional observations from a re-analysis of the deposited data

Results flagged for a closer look

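Among 236 sets of 5 LE/wt arrays (118 genes or probe sets on each day), 21 had an array outside the range that a test for a single outlying value allows, where chance marks about 1 in 20 sets. At GD19, replicate E was the lowest for Bambi (6.73), Cdh5 (6.33), Htra3 (9.19) and Kitlg (6.12) and the highest for Eif2s3 (8.20), Prdx4 (11.05) and Tdrd7 (9.80). Replicate C was the lowest for Ephx2 (3.40) and Igfbp3 (10.67), replicate B the highest for Spon1 (8.19), and replicate D the highest for Tnnt2 (5.53). At GD17, replicate C was the highest for the red cell genes Car1 (5.80) and Urod (9.49) and for probe set 1373686_at (9.66), and the lowest for Gja1 (10.04), Insig1 (8.43) and Uqcrc2 (10.62). Replicate E was the highest for Ifi27 (6.29) and probe set 1368768_at (3.43) and the lowest for Gss (6.37), and replicate B the lowest for Nr2f2 (7.72).

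The change from GD17 to GD19 differed between LE/orl and LE/wt testis, by limma at the adjusted p under 0.05, for 30 of these 118. The same test passed 9.43% of all features and 12.9% of named genes. The 118 include the 6 genes named for the lowest p of this same strain difference, so the count is no independent result. The change was higher in LE/orl, on the log2 scale, for probe set 1390722_at (4.92), Ephx2 (1.70), Tesc (1.49), Rdx (1.42), Lama2 (1.28), Nek1 (1.28), Egr1 (1.23), Fbn1 (1.04), Ahnak (1.03), Col1a1 (1.01), Igfbpl1 (0.98), Dcn (0.81), probe set 1374384_at (0.74), Pdgfra (0.73), Cav1 (0.61), Htra3 (0.59), Ndrg4 (0.58), Gsn (0.47) and Fgfr2 (0.43). It was lower in LE/orl for Car1 (-3.39), Spon1 (-1.86), Gsta2 (-1.82), Dusp6 (-1.55), Procr (-1.54), Ifi27 (-0.98), Scd (-0.96), Tnnt2 (-0.93), Tspan8 (-0.72), Cyb5b (-0.69) and Fabp3 (-0.44). Ephx2 stood at 3.39 ± 0.15 at GD19 and 3.18 ± 0.23 at GD17 in LE/orl testes, so there the gene was near the bottom of the scale on both days. Car1 averaged 3.35 at GD19 and 7.68 at GD17 in LE/orl, and 2.83 at GD19 and 3.76 at GD17 in LE/wt. It reached the minimum of 5 only in the GD17 LE/orl arrays and in GD17 LE/wt replicate C. The LE/orl means of Spon1 (4.46 at GD19, 4.30 at GD17), Gsta2 (4.78 at GD19, 4.26 at GD17) and Scd (4.47 at GD19, 4.26 at GD17) were below 5 on both days. The sizes of these strain differences are therefore uncertain.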

How the results depend on the processing

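Calls of the day change in LE/wt testis numbered 2297 to 3818 under the alternatives, against 3287, and 3008 to 3184 with 1 LE/wt array left out. The number of features tested moved with the signal minimum. With a stricter minimum of 7, 2297 of 4732 were called, and with no minimum 3378 of 15704, against 3287 of 7878. With arrays centred on their medians, 1605 were higher and 1641 lower. Strain differences numbered 743, 498 to 816 with 1 array left out, and 1142 with array weights; the cause was not tested. With a replicate block, 3273 and 719 were called. Of the 118 named items, 95 were called, and 86 of these kept direction and call under every alternative run; the other 9 were Acbd3, Cdh5, Dusp6, Egr1, Icam2, Lgals3, Rarres2, Smad2 and Zp2. No direction of these items was reversed under the alternatives run, but the dimmer probe set of Dusp6 changed by -0.82, and averaging its probe sets took Dusp6 to 0.09 (adjusted p = 0.435). The exact permutation test over 10 arrays has a smallest p of 0.00794, reached by 84 items. Levels near the bottom of the scale limit the folds of the items whose mean was below 5 on at least 1 day: Atp4b, Car1, Cebpb, Enpp2, Ephx2, Gsta2, Icam2, Igfbpl1, Klf5, Ngfr, Nek1, Scd, Tnnt2, Tspan8, Vsnl1 and Zp2, and 3 unnamed probe sets.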

Other observations

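Of 30 tested genes of the cytoskeleton and cell junctions, 7 were called higher and 4 lower, a share below the 41.7% called over all features. Gja1, the gap junction protein connexin 43, had 10.83, 10.90, 10.70, 10.82 and 11.11 in GD19 LE/wt testes, against 10.15, 10.17, 10.04, 10.19 and 10.19 in GD17 LE/wt testes, a change of 0.72 ± 0.11 (limma adjusted p = 1.73e-05). Gsn, gelsolin, which cuts actin filaments, rose by 0.76, and Anxa2, an annexin of the cell surface, by 0.53, both without overlap between the days.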
